A study of Mus musculus with 18 samples.

Results

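The 45 genes described here encode nucleolar proteins and factors that build ribosomes. They were chosen by name for this known function, from RNA polymerase I subunits to the last trimming steps of the small subunit. Of the 40327 genes in the tables for the 129 allele, all 45 were present. Of the 39147 genes in the tables for the Cast allele, 44 were present, because no row there carried the name Tsr1. Utp4 stood under its older symbol Cirh1a in both. In the files 43 of the genes lay on autosomes and 2, Dkc1 and Gnl3l, on the X chromosome.

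The cells were CD23+ B cells from the spleens of female F1 129S1/Cast mice with the genotype Xist+/-, a genotype that all samples shared, the naive ones included. CD23 is a receptor on mature follicular B cells. The naive group had 3 samples and no treatment, and the stimulated group had 3 samples cultured in vitro with 1 µM CpG for 24 h. No sample used here was cultured without CpG, so effects of culture and of CpG cannot be told apart. Stimulation below means both together. CpG DNA activates B cells through Toll-like receptor 9. Per the labels, X inactivation in these mice was skewed so that the Cast X chromosome was the inactive one in every cell. For X-linked genes the Cast tables are thus those of the inactive X chromosome, and the 129 tables those of the active one.

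Ribosomes are made in the nucleolus, where RNA polymerase I transcribes the precursor of the ribosomal RNAs. Small nucleolar ribonucleoproteins modify and fold this precursor, the small subunit processome and the large subunit assembly factors cut it and load ribosomal proteins, and late factors finish each subunit in the nucleoplasm and cytoplasm. Resting lymphocytes are small cells with little cytoplasm and few ribosomes, and nucleolar enlargement is a classical sign of their activation.

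Reads in genes per sample numbered 1987266 to 2928236 for the 129 allele and 2465073 to 3321753 for the Cast allele. Levels are given in CPM, the standard depth-scaled count within the same allele table, after edgeR's TMM factor. Each allele has its own gene models and its own informative sites, so CPM values are compared between samples and not between genes. Markers of B cells were present in all samples: the 9 listed summed to 9298 to 11629 CPM in naive and 3234 to 4007 CPM in stimulated samples on the 129 allele, and each of the 9 was called lower after stimulation. Of the 14 listed macrophage markers, 13 were in the 129 tables and summed to 2175 to 4584 CPM in naive and 5.63 to 9.64 CPM in stimulated samples, with naive replicate 1 highest, and the 11 that could be tested were all called lower. The 8 T cell markers summed to 45.4 to 70.7 CPM in naive and 27.1 to 39.5 CPM in stimulated samples, the 6 of 7 neutrophil markers present to 4.70 to 14.4 CPM in naive and 0.00 to 0.347 CPM in stimulated samples, the 3 of 6 erythroid markers present to 42.9 to 109 CPM in naive and 1.06 to 1.43 CPM in stimulated samples, and the 5 plasma cell markers to 186 to 342 CPM in naive and 228 to 276 CPM in stimulated samples. Single markers within the T cell and plasma cell sums went different ways. On the 129 allele mean Cd4 went from 30.5 to 0 CPM and Il7r from 13.7 to 26.6 CPM. Jchain went from 166 to 31.8 CPM, Xbp1 from 90.0 to 201 CPM and Prdm1 from 1.12 to 14.5 CPM. On the Cast allele the T cell markers summed to 56.3 to 247 CPM in naive and 20.5 to 27.0 CPM in stimulated samples. Of 6 listed cell cycle genes, 5 were in the 129 tables and summed to 147 to 377 CPM in naive and 5123 to 8157 CPM in stimulated samples. The reads in no annotated gene made up 62.6% to 67.1% of aligned reads in the naive and 48.1% to 56.7% in the stimulated 129 tables. The part of these shifts in the results below was not tested. In bulk samples, fewer cells of a type and less RNA per cell cannot be told apart, and a total rise in RNA per cell is invisible to CPM.

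After stimulation nearly the whole set was higher, on both alleles, and no member was called lower. In edgeR's quasi-likelihood test, at a Benjamini-Hochberg adjusted p under 0.05 over all genes, 43 of 45 members were higher on the 129 allele, where 28.2% of all 10581 tested genes were higher and 55.2% were called in either direction. For the Cast allele the count was 43 of 44 members, where 30.7% of all 10365 tested genes were higher and 62.2% were called in either direction. All 45 and 44 members passed the filter on low counts. The 2 groups did not overlap, with the stimulated samples higher, for 43 members on the 129 allele (32.6% of all tested genes) and for 44 on the Cast allele (33.7%). The median log2 fold change of the members was 1.62 on the 129 allele and 1.72 on the Cast allele, against -0.01 and -0.04 over all tested genes. A test against a change of 2-fold, in place of any change, called 32 members on the 129 allele and 35 on the Cast allele, where 12.0% and 13.6% of all tested genes were called higher.

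Together the members took a small but larger share of the library after stimulation. Their reads made up 0.432% ± 0.0141 of all 129 gene reads in naive and 1.39% ± 0.0926 in stimulated samples (SD, n = 3). In the Cast tables the shares were 0.381% ± 0.0187 and 1.35% ± 0.127 (SD, n = 3). The lowest stimulated sample stood at 1.29% and 1.21%, and the highest naive sample at 0.442% and 0.402%, so the groups were far apart on both alleles.

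**Figure D1:**
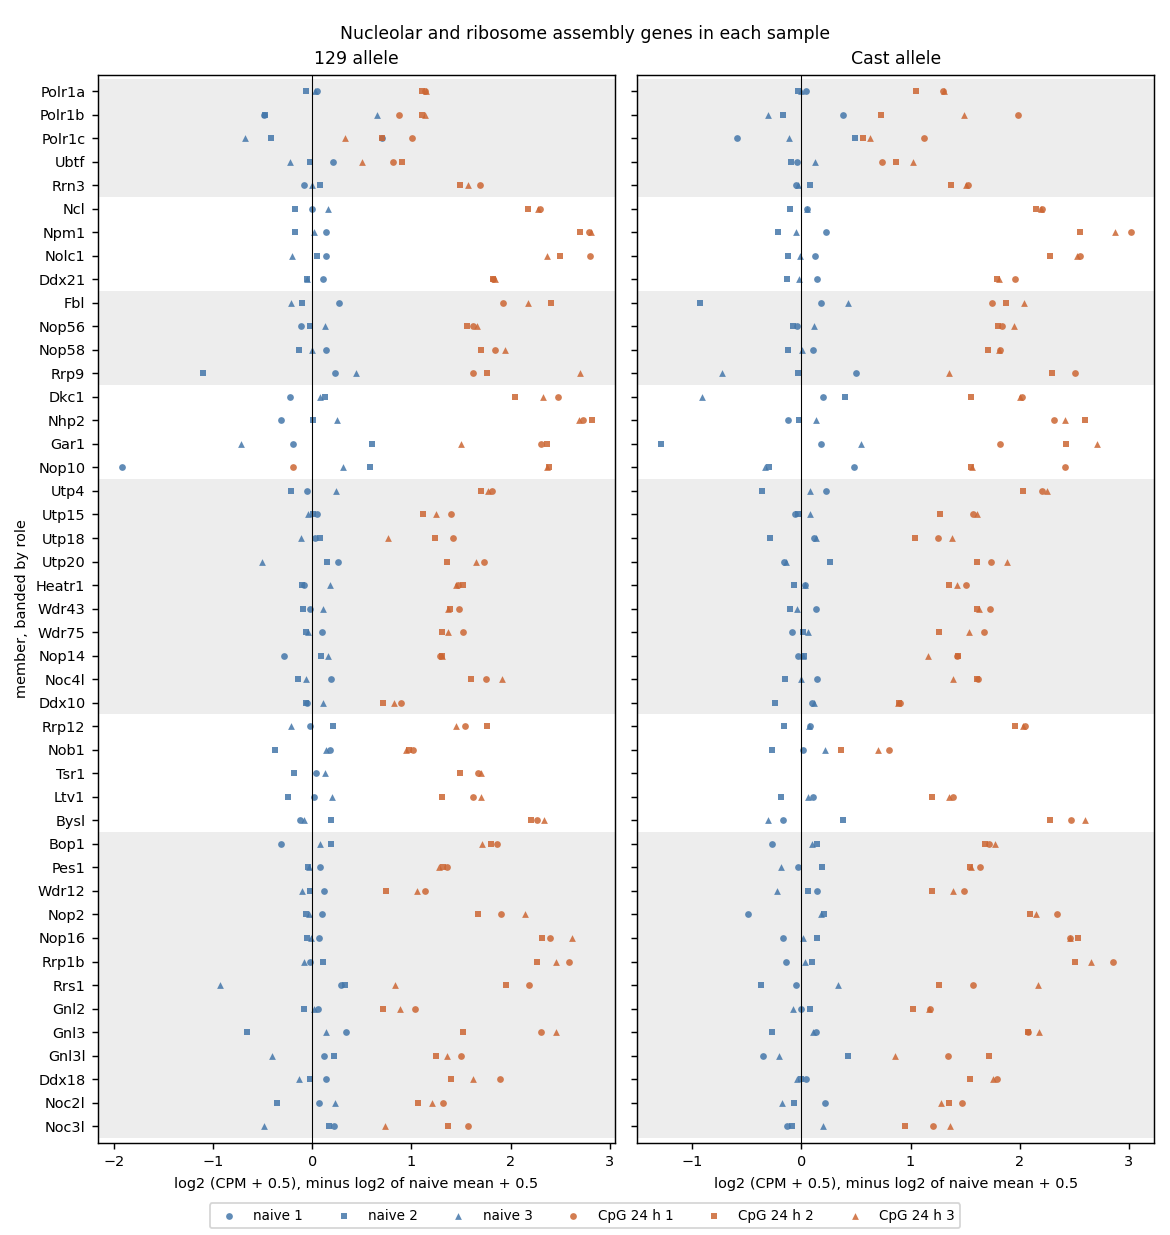
Level of each member in each of the 6 samples, as log2 of CPM plus 0.5 minus log2 of the naive mean plus 0.5, for the 129 allele (left) and the Cast allele (right). Blue points are naive and orange points stimulated samples, the shape gives the replicate number, and grey and white bands mark the roles in the order of the text. Orange points lie to the right of all blue points of the same gene except for Polr1c and Nop10 on the 129 allele.

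RNA polymerase I and its factors gave the smallest changes of the 7 roles, with a median log2 fold change of 1.08 on the 129 allele and 1.23 on the Cast allele over 5 members. Rrn3, the factor that brings the polymerase to the ribosomal DNA promoter, had 129, 144 and 136 CPM in the naive samples and 442, 382 and 406 CPM in the stimulated samples on the 129 allele. It rose by a log2 fold change of 1.59 (adjusted p = 2.96e-05 in edgeR, SE 0.11) there and by 1.47 (adjusted p = 6.23e-06 in edgeR, SE 0.12) on the Cast allele. Every stimulated sample held more than 2 times the level of any naive sample. Ubtf, which binds along the ribosomal DNA and keeps it open, had 301, 257 and 223 CPM in the naive samples and 457, 486 and 368 CPM in the stimulated samples, so the groups were separate but closer. Its log2 fold change was 0.75 (adjusted p = 0.00514 in edgeR, SE 0.16) on the 129 allele and 0.88 on the Cast allele. Polr1a, the largest polymerase subunit, rose by 1.13 (adjusted p = 0.000102 in edgeR, SE 0.11) and 1.23, with a narrow spread of 81.3 ± 3.30 and 179 ± 2.37 CPM (SD, n = 3) on the 129 allele.

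The 2 remaining polymerase subunits rested on few reads. Polr1b, the second-largest subunit, had 22, 23 and 43 reads in the naive and 70, 84 and 87 in the stimulated samples on the 129 allele, a log2 fold change of 1.08 (adjusted p = 0.0332 in edgeR, SE 0.35). Naive replicate 3 lay close to the stimulated samples. The call on the 129 allele was lost without naive replicate 1 (adjusted p = 0.0987) or 2 (0.1002), without stimulated replicate 1 (0.0549), 2 (0.0828) or 3 (0.0857), and with upper-quartile scaling (edgeR adjusted p = 0.0546). With the replicate number as a block, the 129 change of Polr1b was 1.14 (adjusted p = 0.00187 in edgeR, SE 0.27). On the Cast allele the log2 fold change was 1.51 (adjusted p = 0.00301 in edgeR, SE 0.32), and no left-out sample ended that call. Polr1c, which RNA polymerase III shares, was the one member that passed on neither allele. It had 14, 6 and 4 reads in naive and 21, 17 and 13 in stimulated samples on the 129 allele, and 7, 17 and 9 and 31, 21 and 23 on the Cast allele, with edgeR adjusted p of 0.235 and 0.0941. The Cast value passed without naive replicate 2 (edgeR adjusted p = 0.0416). With the reads of both alleles summed its log2 fold change was 0.85 (adjusted p = 0.0359 in edgeR, SE 0.32).

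All 4 abundant nucleolar proteins were higher on both alleles, with the largest median log2 fold change of any role on the 129 allele, 2.41, and one of 2.32 on the Cast allele. Npm1, nucleophosmin, a chaperone of ribosomal proteins and histones, had 232, 186 and 212 CPM in the naive samples and 1458, 1373 and 1482 CPM in the stimulated samples on the 129 allele. Its mean level was 6.84 times higher there and 7.11 times higher on the Cast allele, with log2 fold changes of 2.77 (adjusted p = 1.21e-05 in edgeR, SE 0.13) and 2.83 (adjusted p = 2.20e-06 in edgeR, SE 0.18). All stimulated samples were far above all naive ones. Ncl, nucleolin, which binds the nascent precursor, had 188, 167 and 211 CPM in the naive samples and 934, 855 and 921 CPM in the stimulated samples, a log2 fold change of 2.26 (adjusted p = 1.69e-05 in edgeR, SE 0.13). Its Cast change was 2.19, with 184, 164 and 184 CPM in the naive samples and 818, 787 and 813 CPM in the stimulated samples. On both alleles the groups were far apart. Nolc1, which accompanies small nucleolar ribonucleoproteins to the nucleolus, rose by 2.57 and 2.46. Ddx21, a helicase that acts in polymerase I transcription and precursor processing, had 258, 231 and 232 CPM in the naive samples and 854, 850.5 and 861 CPM in the stimulated samples and the smallest rise of the 4, by 1.83 (adjusted p = 1.76e-05 in edgeR, SE 0.10). Npm1 has near-identical copies in the GRCm38 annotation: 5 other annotated genes shared long stretches with its coding transcripts, so reads of such copies may be in its counts. Fbl, Nop56, Pes1, Wdr12 and Ddx18 also shared such stretches with other annotated genes.

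All 4 members of the box C/D role, named for the particles that guide 2′-O-methylation of ribosomal RNA, were higher on both alleles. Fbl, fibrillarin, the methyltransferase itself, had 18.4, 14.03 and 12.9 CPM in the naive samples and 58.6, 82.7 and 70.0 CPM in the stimulated samples on the 129 allele and rose by 2.21 (adjusted p = 0.000133 in edgeR, SE 0.22). From the Cast allele it had 18, 8 and 19 reads in naive and 67, 75 and 88 in stimulated samples and rose by 1.99 (adjusted p = 0.000793 in edgeR, SE 0.34). Nop56 and Nop58 are the paired scaffold proteins of the particle. Nop56 had 155, 165 and 184 CPM in the naive samples and 518, 498 and 534 CPM in the stimulated samples on the 129 allele, a log2 fold change of 1.62 (adjusted p = 2.85e-05 in edgeR, SE 0.11), and rose by 1.87 on the Cast allele. Nop58 rose by 1.84 and 1.79, with narrow groups of 78.6 ± 7.47 and 281 ± 24.1 CPM (SD, n = 3) on the 129 allele. Rrp9, specific to the U3 particle, rose by 2.15 (adjusted p = 0.00832 in edgeR, SE 0.48) and 2.14, with a wide spread between replicates on each allele that is described further on.

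The box H/ACA particles guide pseudouridylation, and they also hold telomerase RNA. Nhp2 had 18.4, 23.1 and 27.4 CPM in the naive samples and 155, 165 and 151 CPM in the stimulated samples on the 129 allele, the largest fitted change of any member there, at 2.78 (adjusted p = 2.04e-05 in edgeR, SE 0.17). Its Cast change was 2.47 (adjusted p = 1.77e-06 in edgeR, SE 0.15), between group means of 22.5 ± 2.10 and 125 ± 12.5 CPM (SD, n = 3). Gar1 rose by 2.16 (adjusted p = 0.00321 in edgeR, SE 0.41) on the 129 allele. Its Cast change of 2.70 (adjusted p = 0.00201 in edgeR, SE 0.55) rested on 5, 1 and 6 reads in naive and 22, 35 and 45 in stimulated samples. Dkc1, dyskerin, the pseudouridine synthase, is X-linked and rose on both alleles, as given below.

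Nop10, the smallest protein of the H/ACA particle, passed on the Cast allele and not on the 129 allele. On the 129 allele it had 7, 47 and 32 reads in naive replicates 1, 2 and 3 and 31, 196 and 197 in the stimulated ones, so both replicates numbered 1 were low and the groups overlapped. The fitted 129 change was 1.95 (adjusted p = 0.112 in edgeR, SE 0.89). On the Cast allele it had 65, 39 and 32 and 302, 169 and 177 reads, with both replicates numbered 1 high, and rose by 1.93 (adjusted p = 0.000611 in edgeR, SE 0.32). Over both alleles the counts were 72, 86 and 64 against 333, 365 and 374, a log2 fold change of 1.97 (adjusted p = 1.31e-06 in edgeR, SE 0.13). With the replicate number as a block, the 129 change was 1.94 (adjusted p = 2.10e-06 in edgeR, SE 0.23). Without stimulated replicate 1 it also passed, with a change of 2.43 (adjusted p = 0.0270 in edgeR), and DESeq2 on all samples gave 1.94 (adjusted p = 0.0201).

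All 10 members of the small subunit processome, the large complex that forms on the precursor as it is made, were higher on both alleles. Their log2 fold changes ran from 0.81 to 1.79 on the 129 allele and from 0.90 to 2.20 on the Cast allele. Utp4, of the UTP-A subcomplex, had 23.5, 21.0 and 28.9 CPM in the naive samples and 87.5, 80.6 and 84.9 CPM in the stimulated samples on the 129 allele and rose by 1.79 (adjusted p = 0.000104 in edgeR, SE 0.17). Its Cast change was 2.20 (adjusted p = 1.12e-05 in edgeR, SE 0.19). Its subcomplex partners Utp15, Wdr43, Wdr75 and Heatr1 rose by 1.26, 1.42, 1.40 and 1.49 on the 129 allele and by 1.497, 1.66, 1.501 and 1.43 on the Cast allele. Nop14 and Noc4l, which bind each other in the particle, rose by 1.31 and 1.77 on the 129 allele and by 1.36 and 1.56 on the Cast allele. Utp18 rose by 1.17 and 1.24, and Utp20 by 1.60 and 1.77. Ddx10, a helicase, had the smallest change of the role: 99.95, 99.4 and 112 CPM in the naive samples and 193, 171 and 184 CPM in the stimulated samples, a log2 fold change of 0.81 (adjusted p = 0.00071 in edgeR, SE 0.11). The Ddx10 groups did not overlap, and its replicates differed little.

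Factors of late small subunit maturation spread widely in size. Bysl, needed for the last nuclear steps, had 29.0, 36.3 and 29.9 CPM in the naive samples and 154, 149 and 163 CPM in the stimulated samples on the 129 allele and rose by 2.29 (adjusted p = 2.00e-05 in edgeR, SE 0.14) there and by 2.47 (adjusted p = 7.04e-06 in edgeR, SE 0.20) on the Cast allele. Nob1, the endonuclease that makes the final cut of the small subunit RNA, had 92.7, 62.7 and 90.1 CPM in the naive samples and 166, 161 and 158 CPM in the stimulated samples and rose by 0.98 (adjusted p = 0.00176 in edgeR, SE 0.17). From the Cast allele it had 94.0, 77.5 and 108 CPM in the naive samples and 164, 121 and 152 CPM in the stimulated samples, the smallest called change of the set there at 0.64 (adjusted p = 0.00818 in edgeR, SE 0.17). Between these, Rrp12 rose by 1.59 and 2.02, and Ltv1 by 1.56 and 1.32. Tsr1, a GTPase-like factor of the late particle, rose by 1.63 (adjusted p = 4.68e-05 in edgeR, SE 0.13) on the 129 allele.

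All 13 large subunit assembly factors were higher on both alleles, with median log2 fold changes of 1.66 and 1.70. Nop16 had 26.9, 24.8 and 25.4 CPM in the naive samples and 137, 129.8 and 161 CPM in the stimulated samples on the 129 allele and rose by 2.47 (adjusted p = 1.77e-05 in edgeR, SE 0.14). Rrp1b rose about as much, by 2.45 on the 129 and 2.69 on the Cast allele, where it went from 58.7 ± 4.96 to 378 ± 45.8 CPM (SD, n = 3). Nop2, an RNA methyltransferase, rose by 1.94 and 2.23. The 3 proteins of the PeBoW complex, which is needed for processing of the large subunit RNAs, were unequal in size: Bop1 rose by 1.80 and 1.73, Pes1 by 1.32 and 1.58, and Wdr12 by 0.99 and 1.37. No test between these genes was made.

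The GTPases Gnl2, Gnl3 and Gnl3l are related proteins of the nucleolus. Gnl2 had 54.2, 49.1 and 52.8 CPM in the naive samples and 107, 85.9 and 96.3 CPM in the stimulated samples on the 129 allele, a log2 fold change of 0.89 (adjusted p = 0.00118 in edgeR, SE 0.14), the smallest of the role. Gnl3, nucleostemin, rose by 2.16 (adjusted p = 0.0019 in edgeR, SE 0.34) and 2.12. Noc2l and Noc3l, which escort large subunit precursors toward the nucleoplasm, rose by 1.20 and 1.27 on the 129 and by 1.37 and 1.19 on the Cast allele, and the helicase Ddx18 rose by 1.66 and 1.70. Rrs1, which helps to bring the small ribosomal RNA of the large subunit into the particle, had 91, 97 and 33 reads in naive and 411, 354 and 165 in stimulated samples on the 129 allele. Both replicates numbered 3 were low, and its change of 1.78 (adjusted p = 0.0177 in edgeR, SE 0.46) missed the threshold without stimulated replicate 2 (edgeR adjusted p = 0.0542) and with no filter on low counts (0.0614). In the fit with the replicate number as a block, the 129 change of Rrs1 was 1.78 (adjusted p = 8.17e-08 in edgeR, SE 0.16). Its Cast change was 1.73 (adjusted p = 0.000335 in edgeR, SE 0.26).

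Ranked by the mean over both alleles, the 5 largest changes were those of Npm1, Nhp2, Rrp1b, Nolc1 and Nop16, and the 5 smallest those of Polr1c, Nob1, Ubtf, Ddx10 and Gnl2. In the GRCm38 annotation the exons of 4 members overlapped a gene on the same strand. They were Ncl with Snora75, Nop56 with Snord57, Nop58 with Gm26293 and Gnl3 with Snord69, among others. The exons of 17 members overlapped a gene on the opposite strand, such as Dkc1 with Mpp1, Bysl with Ccnd3, Rrp9 with Parp3 and Gnl3 with Pbrm1. The libraries were made with a stranded kit per the labels, but whether strand was used in counting is not given in the sources used here, so reads of such partners cannot be told apart.

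The members rose by close amounts on the 2 alleles. Over the 44 members measured on both, the median difference between the 2 log2 fold changes was 0.123 without regard to sign, and 27 of the 44 were larger on the Cast allele. Pearson's r between the alleles was 0.9299 and Spearman's rho 0.931 across these genes, as a description: the alleles share libraries, and genes are not replicates. Whether stimulation shifted a gene's output between the alleles was tested in edgeR by the allele-by-treatment interaction, fitted beside sample effects. This test called 0 of 44 members, where 0.917% of all 10364 tested genes were called. Before adjustment 3 members had a p under 0.05 (Wdr12, Nop56 and Wdr43). The share of all genes under that cut was not counted, so no conclusion about the members is drawn from these 3. DESeq2 also called 0 members. In the edgeR ratio fit 28 of the 44 members leaned toward Cast, against 50.1% of all tested genes, and this lean was not tested. The standard error of the log2 ratio change had a median of 0.159 over the members, and it was under 0.3 for 34 of them, up to 1.51 for Nop10. Wdr12 had the smallest p: its Cast share was 38.1, 39.5 and 36.3% in naive and 43.8, 45.8 and 44.3% in stimulated samples, a log2 change of 0.39 (adjusted p = 0.221 in edgeR, SE 0.12). All stimulated shares of Wdr12 were above all naive ones, but it was picked for its p. How many of all genes had separate shares was not counted.

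Same-numbered naive and stimulated samples deviated together, so the test was also made with the replicate number as a block. It then called 1 member, Rrp12, where 7.52% of all 10364 genes were called and 3.83% were called toward Cast. The Cast share of Rrp12 was 56.3, 48.4 and 60% in naive replicates 1, 2 and 3 and 63.1, 58.1 and 64.9% in the stimulated ones, higher in 3 of 3 pairs, while the groups as wholes overlapped. The log2 change of its ratio was 0.43 (adjusted p = 0.483 in edgeR, SE 0.20) without the block and 0.43 (adjusted p = 0.0188 in edgeR, SE 0.13) with it.

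**Figure D2:**
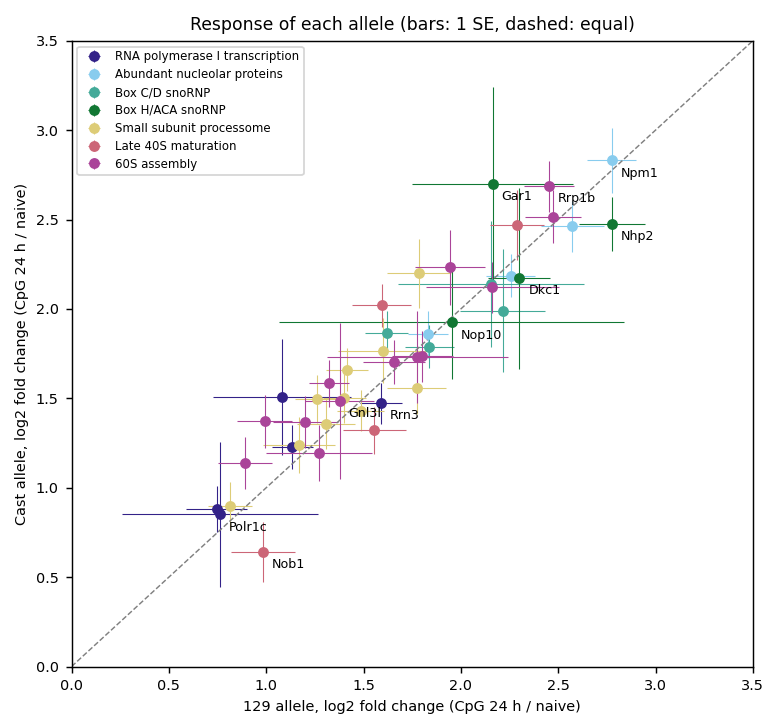
Log2 fold change of each member with stimulation on the 129 allele (horizontal) and on the Cast allele (vertical), coloured by role, with bars of 1 SE from edgeR and a dashed line of equal change. The 44 members lie along the line, from Polr1c and Nob1 at the lower end to Npm1 at the upper end.

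The Cast share of a gene is its Cast reads over its reads from both alleles. For the 42 autosomal members on both tables it centred near equal output: the median of the naive means was 52.0% and that of the stimulated means 52.3%. Ddx18 had the highest naive mean, at 77.4% ± 1.36 (SD, n = 3), and held it after stimulation at 78.1% ± 1.93. Gar1 had the lowest, at 24.3% ± 19.7 and then 28.6% ± 13.1 (SD, n = 3). A share away from equality was not tested against mapping or annotation differences between the strains.

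The spread of the Cast share between replicate numbers was not wider among the members than among other genes with the same minimum of reads. The 2 sets were not matched for depth beyond that minimum. The means of same-numbered samples differed by more than 20 percentage points for 5 of the 42 autosomal members and by more than 10 points for 11. Of the 40 members with 30 or more reads in each sample, 3 (7.5%) and 9 (22.5%) did so, against 11.1% and 27.1% of 7264 autosomal genes at the same minimum. The members with more than 10 points are described here, and Utp18 in the next paragraph, because the spread bears on their single-allele tests. Nop10 was widest: its Cast share was 90.3, 45.3 and 50% in naive replicates 1, 2 and 3 and 90.7, 46.3 and 47.3% in stimulated replicates 1, 2 and 3. The replicates numbered 1 stood apart, in both groups by nearly the same amount. Rrp9 had 72.1, 82.5 and 48.8% and 79.7, 75.5 and 46.0%, with the replicates numbered 3 low. Rrs1 had 64.3, 58.5 and 85.1% and 59.6, 58.6 and 85.6%, and Noc3l 50.2, 52.0 and 67.9% and 49.9, 49.1 and 67.3%, in each case with the replicates numbered 3 high. For Gnl3, at 52.9, 63.2 and 56.5% and 52.4, 65.8 and 52.4%, the replicates numbered 2 were high. Gar1 and Polr1c also exceeded 20 points, on few reads and with less likeness between naive and stimulated samples. Polr1b had 77.6, 70.1 and 48.8% and 80, 58.6 and 70.8%, and Fbl 29.5, 19.0 and 42.2% and 29.0, 24.2 and 30.3%. The samples numbered 3 were 22.0 points apart for Polr1b and 11.9 points apart for Fbl. Ubtf had 45.3, 48.7 and 56.3% and 48.4, 49.3 and 59.6%, with the replicates numbered 3 high.

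Neighbouring genes shared the pattern of a member in some regions and not in others. The nearest 10 genes with enough reads on each side of Rrp9 on chromosome 9, in the order of GRCm38.p6, had a median Cast share of 81.2, 82.3 and 55.04% in naive and 80.6, 79.8 and 52.1% in stimulated replicates 1, 2 and 3. The replicates numbered 3 were low there as well. Around Gar1 on chromosome 3 the medians were 55.4, 54.7 and 72.5% and 52.1, 57.9 and 69.9%, with the replicates numbered 3 high, as for Gar1 itself. Around Utp18 on chromosome 11 they were 46.5, 47.8 and 57.6% and 45.6, 47.4 and 55.5%, and again the replicates numbered 3 were high. Utp18 itself had 56.4, 48.8 and 59.5% and 52.0, 51.7 and 65.8%. Around Ddx18 on chromosome 1 the medians were 50.8, 52.0 and 62.3% and 50.9, 49.5 and 60.5%. Ddx18 itself had 76.0, 77.5 and 78.7% and 75.8, 79.1 and 79.3%. Around Rrs1, over 18 genes, they were 49.1, 50.7 and 55.8% and 46.4, 49.0 and 53.7%. Around Gnl3 they were 50.2, 53.5 and 50% and 47.8, 50.8 and 48.0%. Around Nop10 on chromosome 2 they were 51.7, 53.0 and 51.4% and 48.1, 49.3 and 47.5%, and around Noc3l on chromosome 19 48.5, 48.2 and 50.5% and 48.2, 49.4 and 50.1%, with no replicate standing apart by more than a few points. The part of the neighbouring region in the spread of a member was not tested.

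**Figure D3:**
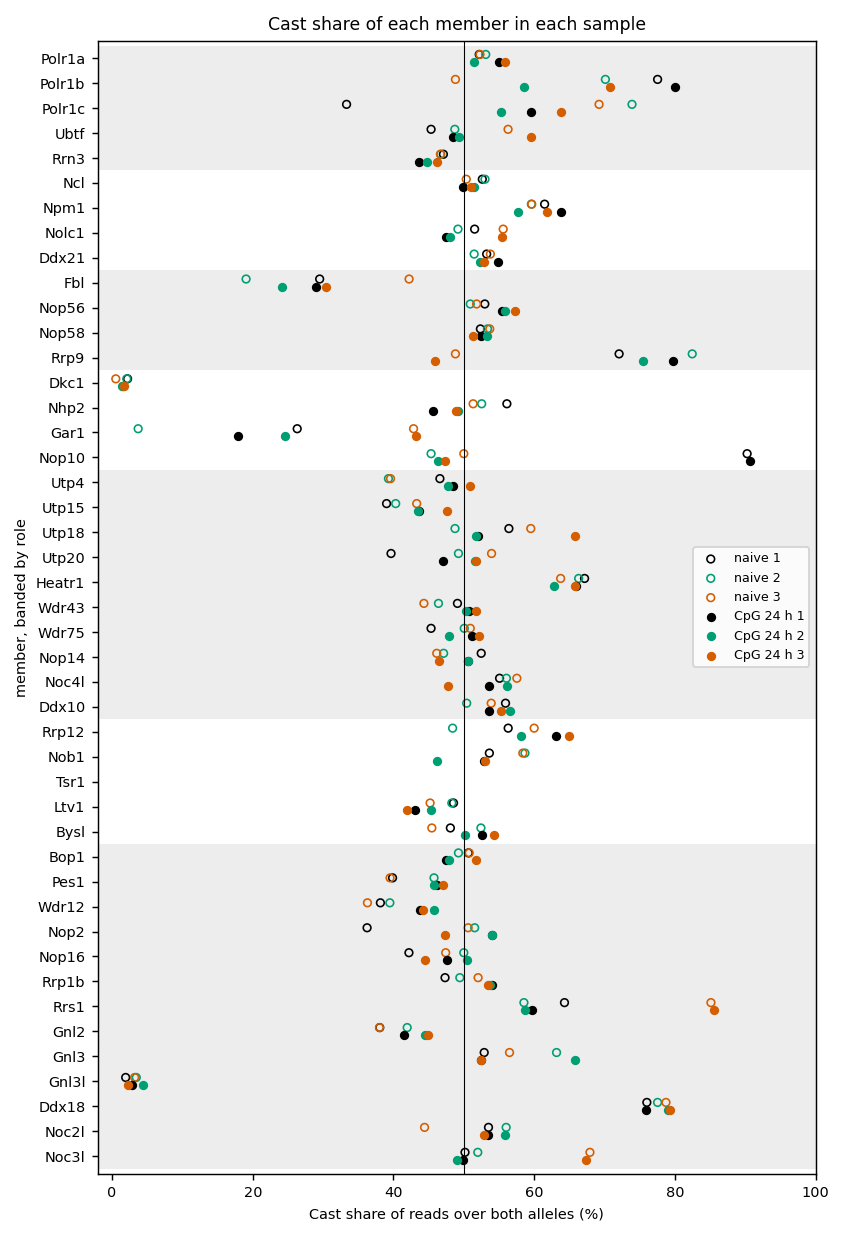
Cast share of reads (percent, horizontal) of the 44 members found on both alleles, in each of the 6 samples, with the row of Tsr1 left empty. Open circles are naive and filled circles stimulated samples, and the colour gives the replicate number. For Nop10, Rrp9, Rrs1 and Noc3l, open and filled circles of 1 colour lie together and away from the others, and the X-linked Dkc1 and Gnl3l lie near 0.

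Reads of both X-linked members were higher after stimulation in the 129 tables, the active X chromosome, and in the Cast tables, the inactive one. Dkc1 (MGP_129S1SvImJ_G0035853 in the 129 files) had 76.0, 96.9 and 94.1 CPM in the naive samples and 497, 369.8 and 449 CPM in the stimulated samples on the 129 allele and rose by 2.30 (adjusted p = 2.96e-05 in edgeR, SE 0.16). From the Cast allele it had 4, 5 and 1 reads in naive and 21, 15 and 22 in stimulated samples, a rise of 2.17 (adjusted p = 0.00442 in edgeR, SE 0.51). The groups did not overlap on either allele. Gnl3l (MGP_129S1SvImJ_G0036173) had 108, 116 and 75.2 CPM in the naive samples and 283, 239 and 257 CPM in the stimulated samples on the 129 allele, a rise of 1.38 (adjusted p = 0.000485 in edgeR, SE 0.18). From the Cast allele it had 5, 10 and 5 reads and 23, 31 and 17, a rise of 1.49 (adjusted p = 0.0147 in edgeR, SE 0.44). The Gnl3l call on the Cast allele was lost without naive replicate 1 (edgeR adjusted p = 0.0532) or stimulated replicate 2 (0.0533).

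The Cast share was low for both genes in all samples. For Dkc1 it was 2.20% (0.858 to 5.51), 2.08% (0.893 to 4.78) and 0.526% (0.0930 to 2.92) in naive and 1.49% (0.973 to 2.26), 1.41% (0.855 to 2.31) and 1.67% (1.11 to 2.52) in stimulated samples, with 95% Wilson intervals that cover counting error only. The means were 1.60% ± 0.934 and 1.52% ± 0.135 (SD, n = 3, two-sided exact permutation p = 1, smallest possible 0.1). For Gnl3l it was 1.93% (0.827 to 4.44), 3.44% (1.88 to 6.21) and 3.21% (1.38 to 7.28) in naive and 2.82% (1.89 to 4.19), 4.37% (3.10 to 6.14) and 2.24% (1.40 to 3.55) in stimulated samples, with means of 2.86% ± 0.811 and 3.14% ± 1.10 (SD, n = 3, exact permutation p = 0.9). The naive and stimulated intervals overlapped throughout, which is not a test between the groups. In the edgeR ratio test the log2 change was -0.12 (SE 0.55) for Dkc1 and 0.11 (SE 0.30) for Gnl3l, and neither was called. In naive cells, Dkc1 ranked 43 and Gnl3l 105 from the lowest among 231 X-linked genes, all with 10 or more reads in each sample, whose median naive share was 3.06%. How many Cast reads a wholly silent gene would be given was not measured, so these Cast reads, and their rise beside the 129 reads, are not shown to be output of the inactive X chromosome.

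Both genes are in the authors' deposited table of X-linked genes, which holds group means. In the authors' deposited table the RPKM of Dkc1 over both alleles was 22.1 in naive and 107 in stimulated cells, and that of Gnl3l 18.6 and 47.8. The ratio of inactive to active X expression in the authors' deposited table was 0.0139 and 0.0137 for Dkc1 and 0.0251 and 0.0282 for Gnl3l, in naive and stimulated cells.

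Of the other X-linked genes of the pathway, Utp14a, a processome protein, and Las1l, an endonuclease of large subunit RNA processing, had higher Cast shares. Utp14a had a share of 6.16% ± 2.24 in naive and 8.48% ± 1.28 in stimulated samples, and Las1l one of 15.7% ± 8.57 and 23.2% ± 5.73 (SD, n = 3). The log2 changes of the ratio were 0.52 (SE 0.27, edgeR adjusted p = 0.563, and 0.0827 with the replicate block) and 0.74 (SE 0.46, edgeR adjusted p = 0.673, and 0.0975 with the replicate block), so neither passed. Las1l replicates numbered 1 were high in both groups, at 25.6% and 29.4%. Tsr2, which delivers a ribosomal protein to the small subunit, had a share of 7.04% ± 6.10 and 11.9% ± 4.78 (SD, n = 3) on 0 to 24 Cast reads per sample. Its naive replicate 1 had 0 of 69 reads from the Cast allele, where 3 reads, the limit taken for a count of 0, would be 4.35% and the 95% Wilson interval reaches 5.27%. On the 129 allele Utp14a rose by 1.14, Las1l by 0.58 and Tsr2 by 0.89, all past the threshold. On the Cast allele Utp14a rose by 1.62 and Las1l by 1.28, while Tsr2, at 1.70 (adjusted p = 0.0536 in edgeR, SE 0.68), missed it. Nkrf had too few reads to be tested.

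**Figure D4:**
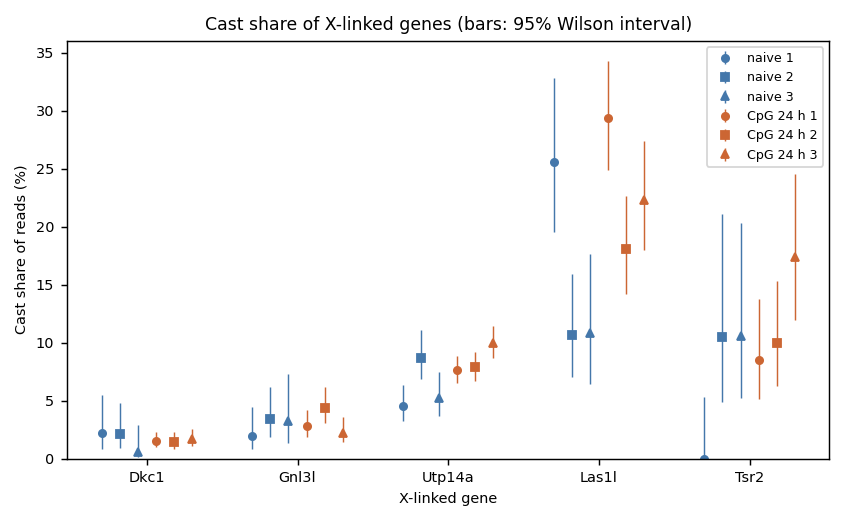
Share of reads from the Cast allele (percent, vertical, from 0) for 5 X-linked genes of the pathway in each sample, with 95% Wilson intervals as bars. Blue points are naive and orange points stimulated samples, and the shape gives the replicate number. Dkc1 and Gnl3l stay below 5% in every sample, and Las1l reaches 29.4% in stimulated replicate 1.

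A wider list of 97 other names from the pathway had 90 entries in the 129 tables. Of the 89 tested on the 129 allele, 67 were higher (28.2% of all tested genes were) and 0 lower, with a median log2 fold change of 1.18. On the Cast allele 75 of 86 were higher (30.7% of all tested genes were) and 0 lower, with a median of 1.08. The largest changes on the 129 allele were those of Lyar, a nucleolar protein of growing cells, at 2.83 (adjusted p = 4.93e-05 in edgeR, SE 0.22), of Pno1, a factor of late small subunit assembly, at 2.39 (adjusted p = 0.000653 in edgeR, SE 0.33), and of Rpf2, the partner of Rrs1, at 2.21 (adjusted p = 5.73e-05 in edgeR, SE 0.18). The lowest share of calls was among RNA polymerase I subunits and factors, where 3 of 10 tested were higher on the 129 allele, a share near the 28.2% of all genes, and 6 of 9 on the Cast allele. Ttf1, the terminator of polymerase I, was at 145 ± 33.7 and 131 ± 30.6 CPM (SD, n = 3) on the 129 allele (edgeR adjusted p = 0.607), and Taf1c, of the promoter selectivity factor, at 25.2 ± 1.08 and 16.7 ± 2.77 CPM (edgeR adjusted p = 0.0533). The Cast values of Taf1c were 16.6 ± 6.28 and 19.2 ± 2.40 CPM (SD, n = 3, edgeR adjusted p = 0.577), and with both alleles summed its log2 fold change was -0.16 (adjusted p = 0.439 in edgeR). Both genes were named after their values were seen, as members of that list that did not pass. The allele ratio test called 2 of the 85 listed genes it could test (0.917% of all genes were called), both toward 129. They were Wdr46, a processome protein, and Nvl, an ATPase of large subunit assembly, named because they passed. The Cast share of Wdr46 was 61.8, 61.3 and 57.7% in naive and 49.5, 46.9 and 46.4% in stimulated samples, a log2 change of -0.74 (adjusted p = 0.0402 in edgeR, SE 0.12). That of Nvl was 49.4, 49.5 and 47.3% and 39.1, 39.9 and 40.6%, a log2 change of -0.52 (adjusted p = 0.0498 in edgeR, SE 0.09). Neither gene's groups overlapped, but both were picked for passing this test. How many of all genes had separate Cast shares was not counted. With the replicate block 7 of 85 were called, against 7.52% of all genes: Wdr46 and Nvl as before, Dcaf13, Sdad1 and Nsa2 toward 129, and Rrp36 and Tsr3 toward Cast.

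The promoters of the members were searched for CACGTG, the palindromic E-box bound by Myc and related factors, read the same on both strands. RefSeq promoters of GRCm38.p6, from 250 bases before to 50 after the start site, were found for 38 of the 45 members, and 9 (23.7%) held the motif in at least 1 window. It was in 12.4% of the 7282 genes with a promoter entry that were tested on the 129 allele, and in 8.09% of all 27025. The difference between these shares, and any part of the motif in the changes, was not tested. The members with a match were Nop2, Utp4, Ltv1, Utp20, Pes1, Tsr1, Utp18, Rrn3 and Wdr43. Npm1, Nhp2, Rrp1b, Nolc1 and Nop16, with the largest mean changes, were not among them, and Npm1 had no promoter entry. Rrn3 had 2 matches, whose first bases lay 215 and 48 bases before the start site. In Nop2 the match began 60 bases before it. Nhp2, with the largest change on the 129 allele, and the X-linked Dkc1 had none in this window. These 4 promoters are shown in lower case with the motif in capitals, and a match is a description of letters, not evidence of binding.
Rrn3, GRCm38.p6 chr16:13780449-13780748, strand +: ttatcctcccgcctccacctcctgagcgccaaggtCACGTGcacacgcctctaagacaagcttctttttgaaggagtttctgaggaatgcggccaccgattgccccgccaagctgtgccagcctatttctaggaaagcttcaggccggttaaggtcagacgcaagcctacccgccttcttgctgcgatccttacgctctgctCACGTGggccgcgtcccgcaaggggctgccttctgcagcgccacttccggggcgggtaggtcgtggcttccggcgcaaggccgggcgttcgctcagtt
Nop2, GRCm38.p6 chr6:125131633-125131932, strand +: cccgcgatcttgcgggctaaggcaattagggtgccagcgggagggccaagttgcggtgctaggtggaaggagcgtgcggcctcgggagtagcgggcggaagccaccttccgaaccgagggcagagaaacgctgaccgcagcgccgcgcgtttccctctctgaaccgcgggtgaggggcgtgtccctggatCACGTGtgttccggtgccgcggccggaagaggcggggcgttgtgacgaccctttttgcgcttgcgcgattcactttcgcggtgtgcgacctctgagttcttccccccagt
Nhp2, GRCm38.p6 chr11:51619523-51619822, strand +: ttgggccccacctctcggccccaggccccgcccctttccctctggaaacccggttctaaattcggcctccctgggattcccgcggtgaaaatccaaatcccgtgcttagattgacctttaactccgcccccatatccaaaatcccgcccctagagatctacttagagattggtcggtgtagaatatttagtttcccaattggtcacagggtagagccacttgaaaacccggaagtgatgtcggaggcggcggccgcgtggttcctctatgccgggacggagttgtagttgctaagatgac
Dkc1, GRCm38.p6 chrX:75095604-75095903, strand +: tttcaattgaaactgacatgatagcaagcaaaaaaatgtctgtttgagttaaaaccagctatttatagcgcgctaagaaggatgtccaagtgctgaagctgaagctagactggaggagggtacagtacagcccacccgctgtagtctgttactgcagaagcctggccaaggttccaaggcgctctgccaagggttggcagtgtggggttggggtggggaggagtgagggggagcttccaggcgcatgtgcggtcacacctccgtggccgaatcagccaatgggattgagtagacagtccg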

How the data were processed

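RNA was measured in 3 naive and 3 stimulated samples, each with 1 table of read counts for the 129 and 1 for the Cast allele. The authors' counts are whole numbers per gene, not normalized, per the file headers and values. The submitters' processing notes name STAR, featureCounts, Subread 2.0.0 and mm10 with no roles, while the gene identifiers are those of the strain annotations. How a read was given to a strain is not given in the sources used here. A deposited table gave the authors' mean RPKM over both alleles, SRPM of each X chromosome and the ratio of these, per the file headers. The other 12 samples are not analysed here.

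Summary rows that name no gene stayed out, and genes without a name kept their identifier. Counts were tested in edgeR 4.0.16 (R 4.3.3) with TMM, filterByExpr, the robust quasi-likelihood test and Benjamini-Hochberg adjustment over all tested genes at 0.05, and the standard error was derived from the F statistic. DESeq2 1.42.0 was an alternative. The allele ratio test used 28374 genes matched by name and chromosome, kept where 3 or more samples held 10 or more reads, alleles added. Scripts were tested on simulated data. All members are accounted for by role. Values in every sample are given for the highest and lowest 129 change of each role, the X-linked members and those called on 1 allele or in the ratio test, and the 5 largest and 5 smallest mean changes are named, as are the X-linked genes and 3 largest rises of the wider list. Values in every sample of Ncl, Polr1b, Rrs1 and the members with wide shares were added after their values were seen. The members and lists were chosen with earlier results of these data known.

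No 2 libraries of a group agreed within sampling noise. The labels do not say whether samples came from separate mice, so p-values measure the spread between these samples. Deviations from the group means of same-numbered samples correlated with r = 0.447 to 0.612 in the 129 tables and 0.170 to 0.255 in the Cast tables, all above 0.1, so the numbers pair the samples. For the Cast share r was 0.588 to 0.673, and for both alleles summed 0.157 to 0.199, over 7264 genes. Read counts without molecular identifiers are not independent molecules.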

Additional observations from a re-analysis of the deposited data

Results flagged for a closer look

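The change of the Cast-to-129 ratio of Rrp12 with stimulation differed from 0 in the fit with the replicate block, with a log2 change of 0.43 toward Cast (adjusted p = 0.0188 in edgeR, SE 0.13). The same direction held in 3 of 3 pairs. That fit called 1 of 44 members, against 7.52% of all 10364 genes, so a call of this kind is no more frequent among the members than elsewhere. Without the block the edgeR adjusted p was 0.483, and a difference between the alleles of Rrp12 rests on the block alone.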

How the results depend on the processing

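The number of members called higher was 43 of 45 on the 129 allele and 43 of 44 on the Cast allele. Over DESeq2, library totals, upper-quartile scaling, no filter on low counts, the replicate block and summed alleles it stayed between 42 and 44 on both, with 0 lower. Against a 2-fold change it fell to 32 and 35. Across the 6 fits that each left out 1 sample the lowest and highest counts were 41 and 43 on the 129 allele and 42 and 44 on the Cast allele. Upper-quartile scaling moved the median log2 fold change of all tested genes to -0.16 and -0.17. No member that was called changed sign under any of these alternatives. The calls that were lost or gained, apart from the 2-fold test, are those named for Polr1b, Polr1c, Nop10, Rrs1 and Gnl3l. With the replicate block, the paired analysis added Nop10 on the 129 allele and Rrp12 in the ratio test, and it changed no other call among the members.

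Of the other pathway genes, the 2-fold test called 28 in place of 67 on the 129 and 34 in place of 75 on the Cast allele, since it asks for a larger change. The fits that left out 1 sample called 61 to 66 and 67 to 73. Of these genes, 1 was called lower on the 129 allele under library totals, upper-quartile scaling and the replicate block, each in turn, and 1 on the Cast allele under upper-quartile scaling.

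The ratio test called 0 members in each alternative but the replicate block, which called 1, and the fits that left out 1 sample called 0 to 0. Over all genes the block raised its calls from 95 to 779, and the cause was not tested. The share of Dkc1 moved by -0.0816 points between groups, by -0.620 to 0.216 with 1 sample left out, and that of Gnl3l by 0.285 points, by -0.330 to 0.738 with 1 sample left out. The paired sign-flip test with the replicate block gave p = 1 for both (exact, smallest possible 0.25). Depth limits the Cast values of Dkc1 and Gnl3l, which rest on 1 to 31 reads per sample.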
